A study of Cervus nippon with 40 samples.

Results

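The names bta-miR-2898, bta-miR-2478, bta-miR-2887, bta-miR-2904, bta-miR-1246 and bta-miR-1260b were followed through small RNA sequencing of Sika Deer organs. They are 6 of the 500 names listed in the series, of which 306 are known names (the prefix bta marks the bovine entries of miRBase and is left out hereafter). The members were chosen by name, as entries often held to be fragments of other RNA classes. They were also selected on measured values, since the rise of miR-2898 and miR-2478 in adult and aged heart, kidney and adrenal had been seen beforehand. That contrast is therefore described with no test. Male deer of the Shuangyang breed were sampled when juvenile (age 1 year), in adolescence (age 3), as adults (age 5) and when aged (age 10). The organs were adrenal, antler, brain, heart, kidney, liver, lung, skeletal muscle, spleen and testes. For each organ and stage RNA of 3 deer was pooled into 1 library, which gives 40 in all, so the spread between animals of a stage was not measured, and stages served as the replicates of an organ.

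A miRNA is cut from a hairpin precursor by Drosha and Dicer and guides Argonaute proteins to messenger RNAs. Small RNA libraries also hold pieces of ribosomal RNA, transfer RNA, small nuclear RNA (the RNA core of the spliceosome) and small nucleolar RNA. Some such pieces carry miRBase names. In human, miR-1246 matches part of the U2 small nuclear RNA, and miR-1260b matches a piece of leucine transfer RNA. The parent RNAs are far more abundant than a typical miRNA, and the amount of their pieces depends on RNA breakdown and on size selection as well as on the cell. The remaining names come from cattle sequencing, have few relatives in other mammals and have no settled function. The authors set reads of ribosomal, transfer, small nuclear and small nucleolar RNA aside before matching to miRBase, so the counts below are the reads that passed that step. Whether any of them came from a parent RNA was not tested.

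The libraries held 41866 to 7759033 miRNA reads (median 744715), so that 1 read stood for 0.129 to 23.9 RPM (reads of a name per 1000000 miRNA reads of its library). Adolescence, adult and aged testes had the lowest depth, and skeletal muscle the highest. In skeletal muscle miR-1 alone took 919199 RPM on average, which leaves little of the total for any other name. Of 17 organ marker miRNAs with reads, 15 were highest in the organ they mark. They covered 8 of the 10 organs. The lung marker miR-200b was highest in kidney, and no liver marker was among the 17. The skeletal muscle marker miR-133a was highest in heart (137578 RPM, against 19819 in skeletal muscle). Some of the 15 carry little weight. Kidney miR-192 was nearly level with the next organ (162722 and 162672 RPM), and kidney miR-204 averaged 0.292 RPM.

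The 6 names made up a small and very variable part of the reads. Together they had 51737 reads, 0.0987% of all miRNA reads. Their summed share ran from 0.00445% in adolescence heart to 0.973% in adult liver, with a median of 0.121% per library. miR-2898 (31067 reads) and miR-2478 (15539 reads) held most of this. The other names were rarer, with 2030 reads for miR-2904, 1879 for miR-2887, 800 for miR-1260b and 422 for miR-1246. miR-2898, miR-2478, miR-2887 and miR-1260b had a read in each of the 40 libraries. miR-2904 had none in adolescence lung, where a count of 0 allows up to 4.61 RPM (3 reads). miR-1246 had none in juvenile or adult skeletal muscle, with limits of 0.387 and 0.462 RPM. At least 10 reads were counted in 40 libraries for miR-2898 and miR-2478, 35 for miR-2904, 32 for miR-2887, 26 for miR-1260b and 14 for miR-1246, so the last is measured least precisely. All 6 passed the filter for testing, at least 10 reads in at least 4 libraries.

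**Figure D1:**
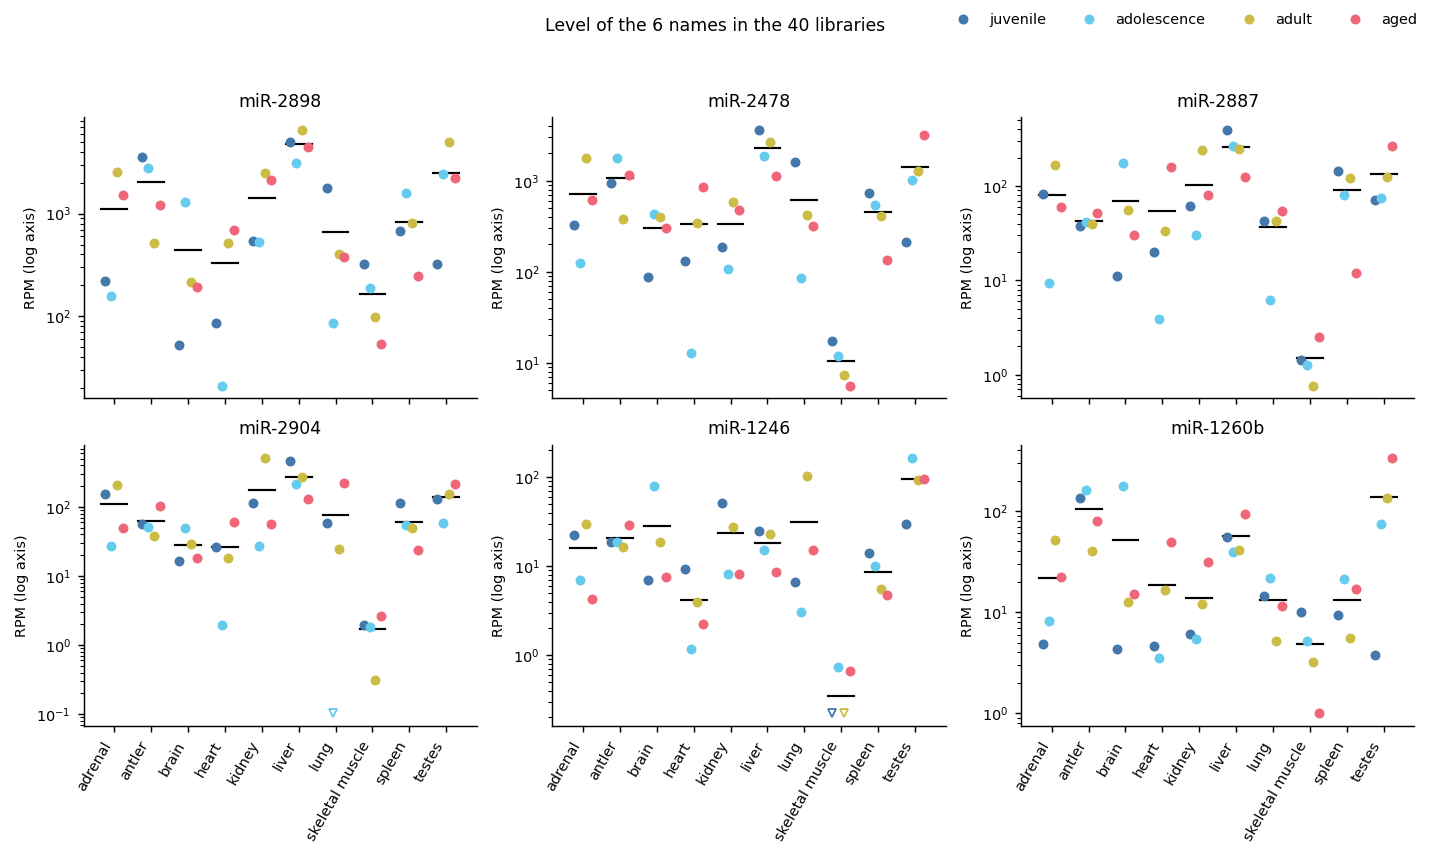
RPM of each name (log axis) by organ. Points are single libraries coloured by stage, black lines are means of 4 stages, and open triangles at the foot mark libraries with 0 reads. Liver has the highest mean for miR-2898, miR-2478, miR-2887 and miR-2904, testes for miR-1246 and miR-1260b, and skeletal muscle the lowest for all 6.

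Liver held the highest RPM of miR-2898, the most abundant of the names. The 4 liver libraries read 5040.0, 3095, 6509 and 4419 RPM from juvenile to aged, a mean of 4766 ± 1417 (SD, n = 4). Testes followed with 319, 2454, 5009 and 2245 RPM, lowest in the juvenile library. On the scale of clean reads (defined with the denominators below) those libraries read 15.5, 12.3, 41.2 and 9.08, so the juvenile library was not the lowest. Antler, the yearly regrowing bone of male deer, read 3599.9, 2764, 511 and 1214 RPM, with its 2 younger libraries above its 2 older ones in RPM. Lung held 1779.6, 86.1, 401 and 375 RPM, with the juvenile library well above the others and the adolescence library below them. Brain read 52.6, 1295, 214 and 193 RPM, and its adolescence library stood far above the rest. Spleen read 682, 1574, 801 and 247 RPM. Skeletal muscle had the lowest mean, with 321, 187, 98.3 and 54.1 RPM. The lowest single value of the 40, 21.1 RPM in adolescence heart, rests on 54 reads (exact 95% Poisson interval 15.8 to 27.5, counting error only).

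miR-2478 had the same top 3 organs, and the same lowest organ, as miR-2898. Liver libraries read 3599.7, 1870.2, 2639 and 1140.4 RPM, a mean of 2312 ± 1054 (SD, n = 4). Testes read 215, 1026, 1278 and 3153 RPM, with the juvenile library again the lowest in RPM. Antler libraries held 936, 1779, 377 and 1169 RPM. The organs below them overlapped. Lung read 1610.4, 84.6, 424 and 320.5 RPM, spleen 728, 546, 415 and 134 RPM, and brain 87.9, 432, 401 and 307 RPM. Skeletal muscle was lowest, at 17.5, 11.9, 7.39 and 5.64 RPM. Outside it, adolescence heart alone (12.9 RPM) came into that range.

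miR-2887 and miR-2904 shared the liver maximum at a lower level. Liver miR-2887 was 390.3, 264, 246 and 126 RPM (mean 256 ± 108, SD, n = 4), and liver miR-2904 was 459, 218, 269 and 132 RPM (mean 269 ± 138, SD, n = 4). In both, the juvenile liver had the highest and the aged liver the lowest RPM. Antler miR-2887 was 37.3, 42.0, 40.03 and 51.2 RPM, with 8 and 9 reads in the first 2, and 0.629, 0.736, 2.14 and 2.38 on the scale of clean reads. Adult kidney held the highest miR-2904 of all libraries, 510.0 RPM from 168 reads. Skeletal muscle lay at 0.769 to 2.49 RPM for miR-2887 and 0.308 to 2.66 RPM for miR-2904.

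miR-1246 and miR-1260b were highest in testes. The 4 testes libraries read 29.9, 164, 92.8 and 95.5 RPM for miR-1246, from 4 to 16 reads each, so their order is uncertain. For miR-1260b they read 3.73, 74.4, 134 and 334 RPM, from 2 to 14 reads. Antler was second for miR-1260b, at 135, 163, 40.03 and 80.3 RPM, and there the counts were larger (27 to 58 reads). In the order of the 10 organ means, the libraries of neighbouring organs overlapped at all 9 steps for miR-2898, miR-2904 and miR-1260b and at 8 of 9 steps for miR-2478, miR-2887 and miR-1246. The step without overlap was the one down to skeletal muscle. Overlap was not counted over all tested names. On the scale of total miRNA reads 82.3% of them were called lower in skeletal muscle (tests below).

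The order of organs depended on what the reads were divided by. Scaled to 1000000 clean reads (all reads of a library after trimming), liver stayed highest for miR-2898 (189 ± 76.8), miR-2478 (84.8 ± 30.2), miR-2887 (9.32 ± 2.79) and miR-2904 (9.87 ± 4.15, all SD, n = 4). Testes went from place 2 to 9 for miR-2898 and from place 1 to 10 for miR-1260b. Skeletal muscle moved from place 10 to 2 for miR-2898, at 91.2 ± 65.7, and stayed at place 10 for miR-2478, at 5.86 ± 2.95. After TMM scaling, which sets libraries by the bulk of their names, skeletal muscle was first and liver second for miR-2898. TMM factors of skeletal muscle were 0.0291 to 0.0746, and 0.151 to 4.76 elsewhere. Against TMM, the median difference over the 124 tested names moved by -3.60 (log2) in skeletal muscle with total miRNA reads, and by -0.59 with clean reads.

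**Figure D2:**
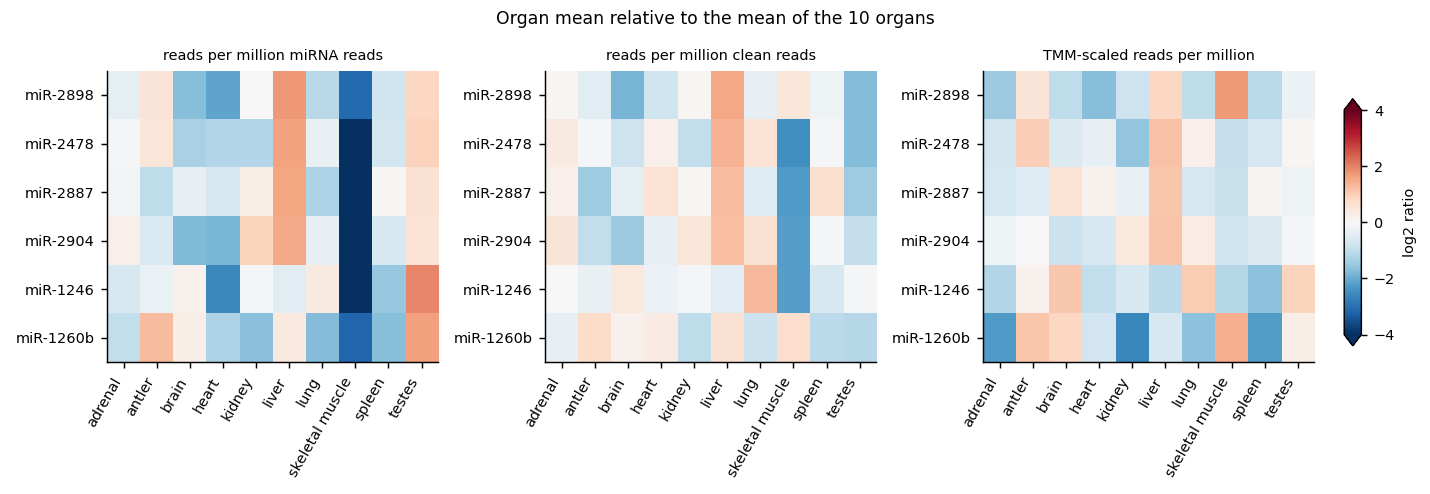
Organ mean of each name relative to its mean over the 10 organs (colour, log2 ratio, values beyond ±4 drawn at the end colour), under the denominators named above the panels. The liver column keeps its sign for miR-2898, miR-2478, miR-2887 and miR-2904 in all panels, while the skeletal muscle column changes sign for miR-2898 and miR-1260b.

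Differences between organs were tested with limma on TMM-scaled log2(RPM + 1), with stage as a term, over the 124 names that passed the filter. Any difference between the 10 organs was called (Benjamini-Hochberg adjusted p below 0.01) for 2 of the 6 names, against 75.8% of all names tested. They were miR-1260b (adjusted p = 0.00296) and miR-2898 (adjusted p = 0.00302). The others did not pass, with adjusted p of 0.0272 for miR-2478, 0.12 for miR-1246, 0.494 for miR-2904 and 0.53 for miR-2887. With any single stage left out at least 1 of these calls was lost, and 0 or 1 of the 6 names were called. Over all names 75 of 115, 78 of 113, 73 of 119 and 81 of 117 were then called (juvenile to aged left out). With total miRNA reads as the denominator 6 of 6 names passed (92.7% of all names), and with clean reads 2 of 6 (81.5%), namely miR-2478 and miR-2887.

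When each organ was set against the mean of the other 9, with an absolute log2 difference above 1 also required, 3 of the 60 tests of a member were called, all higher, against 11.3% higher and 11.5% lower over all names and organs. miR-1260b was higher in antler by 2.31 ± 0.70 (log2, SE, adjusted p = 0.00637), where 15.3% of names were called higher. It was also higher in skeletal muscle by 2.24 ± 0.70 (adjusted p = 0.00786), as was miR-2898 by 2.48 ± 0.69 (adjusted p = 0.00369), where 24.2% of names were called higher. On the scale of total miRNA reads the muscle differences turned to -2.29 for miR-1260b and -2.49 for miR-2898. There all 6 names were called lower in skeletal muscle, as were 82.3% of names, and miR-1246 was called higher in testes, as were 33.1%. With clean reads miR-2478 was the single member called in skeletal muscle, lower at -1.89 (log2), as were 23.4% of names. The antler difference of miR-1260b was 0.74 on the scale of clean reads (adjusted p = 0.0509), no longer called. Both muscle calls were lost in limma without any 1 of the stages (adjusted p from 0.0103 to 0.459) and without testes, and that of miR-2898 also in DESeq2 (adjusted p = 0.0162). The antler call was lost without any 1 of the 3 younger stages (limma adjusted p from 0.0142 to 0.0597).

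The liver differences were not called after TMM scaling but kept their direction under the other denominators. They were 1.76 ± 0.59 for miR-2478 (log2, SE, adjusted p = 0.0187), 1.92 ± 0.69 for miR-2898 (adjusted p = 0.0267), 1.54 ± 0.62 for miR-2887 (adjusted p = 0.0414) and 1.65 ± 0.70 for miR-2904 (adjusted p = 0.0535). With clean reads the same 4 names were called higher in liver, by 1.54 for miR-2887 to 2.39 for miR-2898 (limma adjusted p from 0.00321 to 0.00621), where 14.5% of names were called higher. With total miRNA reads they were called too, by 2.70 to 3.16, where 35.5% of names were. miR-1246 (-0.31 ± 0.71) and miR-1260b (0.37 ± 0.70) were not called in liver on any of these scales.

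Levels spread widely between the stages of an organ, and several names reached their extremes in the same library, although which library that was depended in part on the denominator. The same counts were not made over all tested names, so those given here do not set the 6 names apart. In RPM all 6 were lowest in the juvenile and highest in the adolescence brain. With clean reads these counts were 5 and 4, and with TMM scaling 4 and 6. In heart and kidney all 6 had their lowest RPM in adolescence (5 in each with clean reads, 4 in heart and 6 in kidney with TMM), although miR-1246 in kidney differed there from the aged library by less than the worth of 1 read. In adrenal all 6 were highest in the adult library in RPM and with clean reads, and 4 with TMM, where miR-2904 and miR-1246 were highest in the juvenile library. On all 3 scales 5 names were lowest in adolescence lung and 5 in aged spleen. In testes 5 names were lowest in the juvenile library in RPM, and with clean reads miR-2887, miR-2904 and miR-1246 were highest there. Total miRNA reads of testes were 535668 in the juvenile and 41866 in the aged library. In liver 4 names were lowest in the aged library in RPM, and all 6 in adolescence with clean reads. Over the 10 organs the stages overlapped. The median RPM of miR-2898 was 431 in juvenile, 910.2 in adolescence, 658 in adult and 951 in aged libraries.

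Heart, kidney and adrenal held the contrast that helped to choose the names. Heart miR-2898 went from 86.8 and 21.1 RPM in juvenile and adolescence to 516 and 688 RPM in adult and aged libraries, and miR-2478 went from 132 and 12.9 to 343 and 848 RPM. Kidney miR-2898 was 540.3 and 526 RPM in the younger and 2511 and 2119 RPM in the older libraries. Adrenal miR-2898 was 222 and 158 RPM, then 2536 and 1525 RPM. In RPM both older libraries lay above both younger ones in all 3 organs for miR-2898, miR-2478 and miR-1260b, as they did for 19.4% of all tested names. They did so in 2 organs for miR-2887 and in none for miR-2904 and miR-1246. In heart this was lost on the TMM scale (log2) for miR-1260b, at 4.60 in adolescence and 3.98 in adult. It was lost there for miR-2887 too, at 5.56 in juvenile and 4.96 in adult. Kidney miR-1260b rests on 2, 2 and 4 reads in juvenile, adolescence and adult libraries. The mean difference of older minus younger libraries over these organs was 2.19 for miR-2898 (log2, TMM scale), 1.74 for miR-2478, 1.25 for miR-1260b, 1.24 for miR-2887, 0.56 for miR-2904 and -0.995 for miR-1246, beside a median of -0.35 over the 124 names.

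In the 7 other organs, which were not used for the choice, the same contrast was called for 0 of the 6 names and 0% of the 112 names tested (limma with an organ term). Over all 112 names 21 had an unadjusted p below 0.05, none of them a member. The other tools called 2 names (edgeR) and 7 names (DESeq2), none of them a member. In DESeq2 1 member had an unadjusted p below 0.05. The differences were -0.45 ± 0.49 for miR-2898 (log2, SE, adjusted p = 0.688), -0.34 ± 0.56 for miR-1260b, -0.20 ± 0.41 for miR-2478, 0.05 ± 0.43 for miR-2887, 0.07 ± 0.52 for miR-1246 and 0.17 ± 0.53 for miR-2904. In RPM, miR-2898 had both older libraries above both younger ones in 0 of these 7 organs and below them in 2, antler and skeletal muscle. Whether the older and younger stages differ more in heart, kidney and adrenal than elsewhere was not tested, since those organs chose the names.

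**Figure D3:**
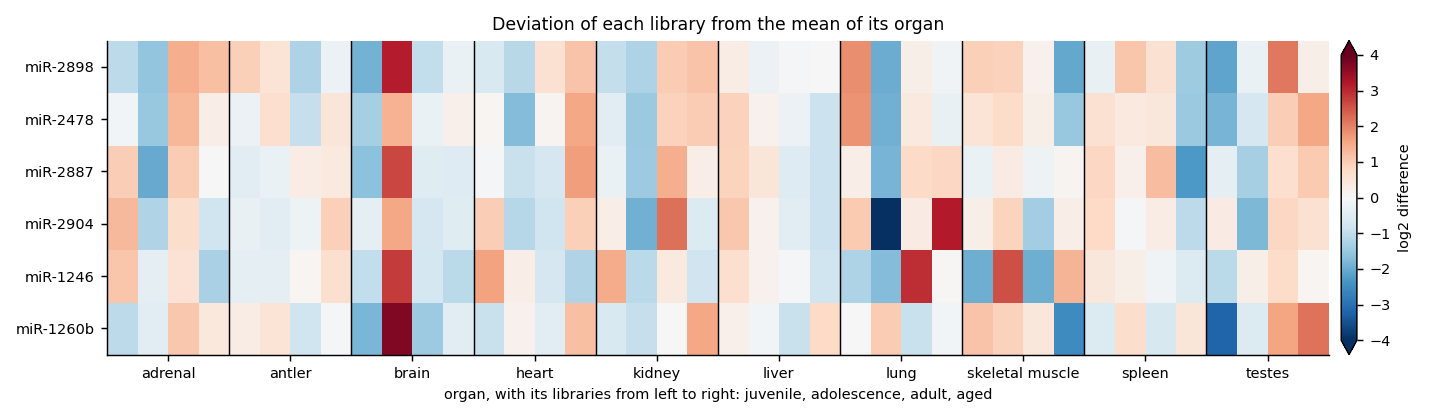
Each library's log2 RPM (TMM scale) minus the mean of its organ, for the 6 names (rows) and 40 libraries (columns, 4 stages per organ, values beyond ±4 drawn at the end colour). Adolescence brain is above its organ mean for all 6 names, and adolescence lung is below it for all but miR-1260b.

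The names moved together within organs. On the TMM scale, with each organ's mean removed, Pearson's r between miR-2898 and miR-2478 was 0.85 over 40 libraries (Spearman's rho 0.85). It was 0.76 between miR-2887 and miR-2904 (rho 0.82), 0.76 between miR-2478 and miR-2887 (rho 0.74) and 0.72 between miR-2898 and miR-1260b (rho 0.67). miR-1246 had r of 0.49 with miR-2904 and 0.47 with miR-2887, and 0.07 to 0.21 with the other 3 names. The lowest pair was miR-2904 and miR-1260b (r = 0.06). The median over the 15 pairs was 0.49, beside 0.08 over all 7626 pairs of tested names. With clean reads as the denominator these medians were 0.47 and 0.31, a smaller gap. These are descriptions with no test, since the points share libraries, depth and denominator, and the 10 organs of a stage share the same deer. Without the adolescence libraries the median of the 15 pairs was 0.23, and without adolescence brain alone it was 0.44. The rise of miR-2898 and miR-2478 in heart, kidney and adrenal helped to choose the names, so their r is not independent of the choice. In the 28 libraries of the other organs r between these names was 0.84, and the median of the 15 pairs was 0.54, beside 0.07 over all pairs.

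**Figure D4:**
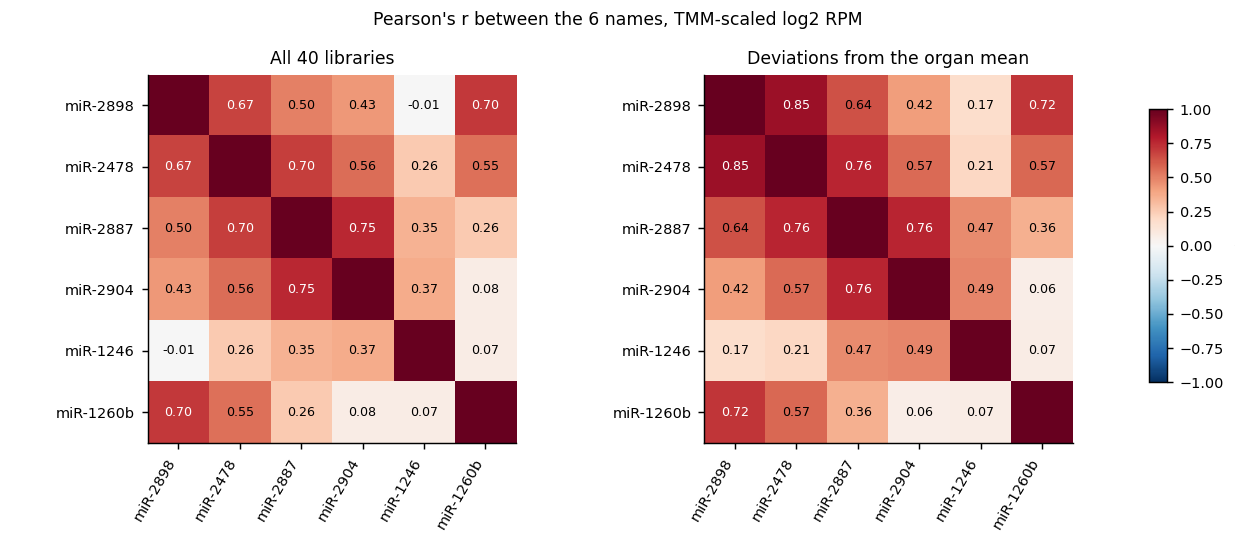
Pearson's r between the 6 names on TMM-scaled log2 RPM over 40 libraries, with organ means kept (left) and removed (right). With organ means kept the highest value is that of miR-2887 and miR-2904 (0.75), and with organ means removed that of miR-2898 and miR-2478 (0.85). The lowest are near 0 and involve miR-1246 or miR-1260b.

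With organ means kept, the median over the 15 pairs was 0.43 on the TMM scale, beside 0.02 over all pairs. On the RPM scale the medians were 0.73 and 0.36. Without skeletal muscle they were 0.70 and 0.17. Beyond the 6, only the names of highest r with each over the 40 libraries (TMM scale) were listed. How many other names had a similar r was not counted. miR-4286 was the closest to miR-2898 (r = 0.83) and miR-1260b (r = 0.72) and second for miR-2478 (r = 0.67). However, miR-4286 had only 555 reads over the 40 libraries. miR-193b followed for miR-2898 (r = 0.62) and miR-133c for miR-1260b (r = 0.40), and miR-574 was closest to miR-2478 (r = 0.67). miR-423-3p was the closest to miR-2887 (r = 0.66) and miR-2904 (r = 0.58), followed by miR-1306 (r = 0.55) and miR-214 (r = 0.44). miR-1246 had no close partner. Its nearest were let-7b and miR-3596 (r = 0.35 for both), which hold the same reads under both names.

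The GC content of each library's clean reads, a property of the whole library and not of the 6 names, moved with them inside organs. With organ means removed from both, r with GC content was 0.72 for miR-2887 (rho 0.60), 0.70 for miR-2898 (rho 0.68), 0.69 for miR-2478 (rho 0.67), 0.43 for miR-1260b (rho 0.32), 0.39 for miR-2904 (rho 0.39) and 0.22 for miR-1246 (rho 0.13), on the TMM scale over 40 libraries. The median over all 124 tested names was -0.20, and 37.1% of them were above 0. miR-2887, miR-2898 and miR-2478 took places 4, 8 and 9 of 124. Without heart, kidney and adrenal they took places 4, 7 and 11, with r of 0.79, 0.68 and 0.63, beside a median of -0.09 over all names. Without the 2 libraries farthest from the median, r was 0.62 for miR-2887, 0.60 for miR-2898 and 0.66 for miR-2478, but 0.19 for miR-1260b and 0.01 for miR-1246, which therefore rest on those libraries.

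**Figure D5:**
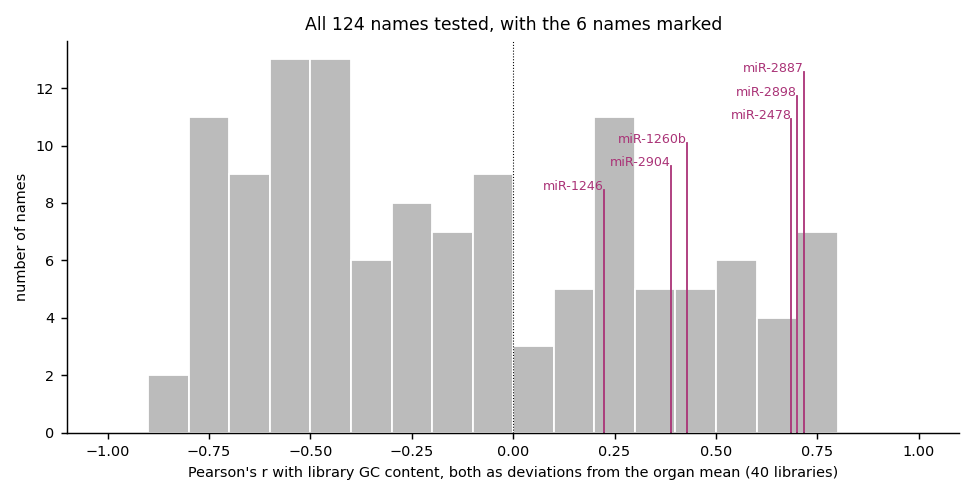
Number of tested names (bars, 124 in all) by Pearson's r with library GC content, both taken as deviations from the organ mean over 40 libraries on the TMM scale. The 6 names (lines) are all above 0, and miR-2887, miR-2898 and miR-2478 lie at the upper end.

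Organ by organ, the library of highest GC content held more miR-2898 and more miR-2478 than the library of lowest GC content in 10 of 10 organs. Of all tested names 3.23% did so. The count was 9 of 10 organs for miR-2887 and miR-2904, 7 for miR-1260b and 6 for miR-1246. For these lower counts the share over all names was not computed. On the RPM scale r within organs was 0.40 for miR-1246 to 0.81 for miR-2887, but the median over all names was higher as well, at 0.02 (50.8% above 0), and miR-2887, miR-2898 and miR-2478 took places 5, 10 and 12. With clean reads as the denominator r was 0.20 to 0.63, beside a median of -0.17. With organ means kept, r with GC content over 40 libraries on the TMM scale turned on skeletal muscle for 3 of the 6 names. It was -0.11 for miR-2898, -0.20 for miR-1260b and 0.29 for miR-1246, and without skeletal muscle 0.49, 0.23 and 0.03. For the others it moved less, from 0.41 to 0.52 for miR-2478, from 0.44 to 0.60 for miR-2887 and from 0.24 to 0.27 for miR-2904. In the fit between organs, GC content as a covariate raised the called names from 2 to 4 of 6 (88.7% of all names), adding miR-2478 and miR-2887. Skeletal muscle libraries lay apart from all others in GC content, so that organ and GC content cannot be told apart there.

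Other properties of the library were set beside GC content. With organ means removed, r with the share of ribosomal RNA among distinct mapped sequences (each counted once, so not an amount of that RNA) was -0.30 to -0.09 over the 6 names, and with that of small nuclear RNA -0.15 to 0.07. For miR-1246, the name tied to U2 small nuclear RNA, the latter was 0.05, and its r with the ribosomal share (-0.30) was larger in size than with GC content (0.22). With the share of miRNA reads in clean reads r was -0.34 to -0.04. Whether RNA breakdown or size selection had a part in these relations was not tested.

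Lists of conserved miRNAs and of names that overlap small nucleolar RNA genes are set beside the members, with no test of a difference. Of 12 conserved miRNAs, 9 passed the filter, and their median r with GC content within organs was -0.48. Of these 3 were above 0, let-7b among them (0.59), while miR-26a was at -0.77, so their range overlaps that of the members (0.22 to 0.72). Of 5 small nucleolar RNA names only 2 passed, miR-1839 at -0.75 and miR-664b at -0.68. All 6 members were above 0, with a median of 0.56. The median SD of log2 levels within an organ was 1.38 for the 6 names and 1.05 over all tested names. Between organs 7 of the 9 conserved miRNAs and 1 of the 2 small nucleolar RNA names were called, and for maturity in the 7 organs 0 of 9 and 0 of 2.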

How the data were processed

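Small RNA libraries of 40 pools were sequenced by the authors, who removed adapters and short reads, set aside ribosomal, transfer, small nuclear and small nucleolar RNA, and matched the rest to miRBase 22.0 and to miRDeep 2.0.5 predictions. The deposited values are RPM, the reads of a name scaled to 1000000 miRNA reads of the library, although the column is headed tpm. The labels and the paper name different library kits. A name with no read is unlisted and was set to 0. In the 4 antler libraries reads listed as miR-148c equalled the study's reads for miR-2957 and were counted under that name. Of 7982 values, 100% lay within 0.01 of a whole read count, and these reads fed the count tests, which called 95 (edgeR) and 108 (DESeq2) of 124 names between organs, beside 94 in limma.

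Of the 306 known names, those with 10 or more reads in 4 or more libraries were tested in R 4.3.3. The main test was limma 3.58.1 (trend) on log2(RPM + 1) after TMM scaling. The recovered reads were tested with edgeR 4.0.16 under TMM factors and with DESeq2 1.42.0 under its own size factors, not TMM. Scripts were tested on simulated data. The replicate number of a library is its stage, and all organs at a stage were taken from the same 3 deer, so stage was a block in the organ model. The error behind each p-value is the spread between libraries left after the terms of the model, not the spread between animals. Clean reads, GC content and RNA class shares were the study's library totals. The members and lists were chosen with earlier results of these data known. Named besides the members are the 2 names of highest r with each and at most 3 from each list. Alternatives were denominators, tools, pseudocount 10, no filter, GC content, and left out stages and organs.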

Additional observations from a re-analysis of the deposited data

Results flagged for a closer look

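In the groups of 4 libraries per organ, 60 in all, 4 held a library far from the others (Dixon's ratio above its 95% limit), where chance alone gives about 1 in 20. Adolescence brain was such a library for miR-2898 (1295 RPM, others 52.6 to 214), miR-1246 (78.7 RPM from 29 reads, others 6.90 to 18.8) and miR-1260b (176 RPM from 65 reads, others 4.31 to 15.2). Adult lung was one for miR-1246, at 101.7 RPM from 78 reads, with the others at 3.08 to 15.4.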

How the results depend on the processing

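Leaving out 1 stage called 0 to 1 of the 6 names for any difference between organs (2 with all stages). It called 0 to 2 organ contrasts (3 with all stages). The 2 called without the adolescence libraries were not among those 3. For any difference, 6 names were called with total miRNA reads, 5 without miR-1 in the total and 4 with GC content. With no filter 0 were called, and 1 without testes or without skeletal muscle (the last pair chosen after seeing the data). Of the 124 names tested, the main fit called 94, total miRNA reads 115, the total without miR-1 106 and GC content 110. With no filter 119 of 306 were called, without testes 92 of 121 and without skeletal muscle 79 of 124. With a stage left out 73 to 81 were called, of 113 to 119 tested. The organ contrasts called were 12 with total miRNA reads, 5 with clean reads, 8 without miR-1 in the total and 9 with GC content. With no filter 0 were called, and 1 without skeletal muscle. The organ contrasts of all names were not counted in this way for these alternatives. Without the replicate block (no stage term) the counts were again 2 and 3, and no call of a member changed. In skeletal muscle, total miRNA reads turned the differences to -2.49 for miR-2898 and -2.29 for miR-1260b. For maturity in 7 organs no alternative called a member, and small differences changed sign. Those of miR-2887 became -0.11 (edgeR), -0.093 (DESeq2) and -0.017 (pseudocount 10), those of miR-2904 -0.076 and -0.10, and those of miR-1246 -0.050 and -0.15 (edgeR and DESeq2). Leaving out a stage or an organ gave -0.79 to 0.026 for miR-2898, -0.51 to 0.13 for miR-2478, -0.21 to 0.41 for miR-2887, -0.28 to 0.77 for miR-2904, -0.37 to 0.70 for miR-1246 and -0.998 to 0.42 for miR-1260b. The median r with GC content, 0.56, was 0.42 to 0.61 with a stage, an organ or adolescence brain left out, 0.27 with organ means kept, and -0.26, 0.023 and -0.27 with ribosomal, small nuclear and miRNA shares in its place. The median r of the 15 pairs, 0.49, was 0.23 to 0.57 in the same way. Without heart, kidney and adrenal they were 0.56 and 0.54. The causes were not tested. With at least 10 reads in only 14 of the 40 libraries, miR-1246 was measured least precisely.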
